A study of Mus musculus with 23 samples.

Results

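RNA of 7 marker genes of brain regions that adjoin the hippocampus was measured in every library of the series. Prkcd, Tcf7l2, Slc17a6 and Lef1 stand for the thalamus, and Tbr1, Foxp2 and Rprm for the deep layers of the neocortex. They were chosen by name, 7 of the 24985 gene symbols counted in each experiment, so that their levels could be read as a measure of how the tissue was cut out. The mice were of the C57BL6/J strain, and exons 3 to 7 of Acss2, the gene for an enzyme that makes acetyl-CoA from acetate, had been deleted in embryos at the one-cell stage, so the loss is constitutive and present in all tissues. Whole hippocampi were cut out by hand from home cage KO, Het and WT mice (2 libraries each). A second experiment used dorsal sections of 1 mm, cut with a brain matrix: 4 libraries of KO mice and 3 of WT mice killed 30 min after a single-shock contextual fear conditioning, and 5 of KO mice and 5 of WT mice taken from the home cage. The sources used here state neither age nor sex.

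The thalamus lies beneath the dorsal hippocampus and the neocortex above it, so a freehand or matrix cut can carry some of either. Neurons of the thalamus, unlike most neurons of the hippocampus and neocortex, load glutamate into vesicles with the transporter VGLUT2, encoded by Slc17a6. Tcf7l2 and Lef1 encode transcription factors of the Wnt pathway that are kept on in mature thalamic neurons, and Lef1 is also active in brain endothelium. Prkcd encodes protein kinase C delta, which is abundant in thalamic relay neurons. Tbr1 encodes a T-box transcription factor that specifies neurons of the deepest neocortical layers, Foxp2 a forkhead transcription factor of layer 6 that is also strong in striatal medium spiny neurons, and Rprm encodes reprimo, a small cell cycle inhibitor used as a layer 6 marker.

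On mm10, GENCODE release M21 placed Prkcd (ENSMUSG00000021948.17) at chromosome 14, 30595354 to 30626210 (minus strand), Tcf7l2 (ENSMUSG00000024985.19) at chromosome 19, 55741820 to 55933654 (plus strand), and Slc17a6 (ENSMUSG00000030500.6) at chromosome 7, 51622006 to 51671119 (plus strand). It placed Lef1 (ENSMUSG00000027985.14) at chromosome 3, 131110471 to 131224356, and Foxp2 (ENSMUSG00000029563.16) at chromosome 6, 14901349 to 15441977, both on the plus strand. Tbr1 (ENSMUSG00000035033.15) and Rprm (ENSMUSG00000075334.2) both lie on chromosome 2, Tbr1 at 61802930 to 61814114 (plus strand) and Rprm at 54084093 to 54085552 (minus strand). Lef1 overlaps the antisense gene Gm43352, and without strand its reads cannot be told apart from those of that gene.

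The RefSeq promoter table held 6 of the 7 genes, and Foxp2 was not among them. The windows of Prkcd, Slc17a6 and Tbr1 are printed because Prkcd and Slc17a6 moved in opposite directions across dorsal libraries and because Prkcd and Tbr1 were the members that passed a test. Each is the 250 bases before the start that RefSeq gives, which differs from the GENCODE start above and for Tbr1 lies inside the GENCODE gene. The windows are read 5′ to 3′ on the gene's strand of GRCm38.p6, at chr14:30626209-30626458 (minus), chr7:51621580-51621829 (plus) and chr2:61804203-61804452 (plus). Capitals mark the letters bound by factors of the family of Tcf7l2 and Lef1, CTTTGA or CTTTGT on either strand:
Prkcd: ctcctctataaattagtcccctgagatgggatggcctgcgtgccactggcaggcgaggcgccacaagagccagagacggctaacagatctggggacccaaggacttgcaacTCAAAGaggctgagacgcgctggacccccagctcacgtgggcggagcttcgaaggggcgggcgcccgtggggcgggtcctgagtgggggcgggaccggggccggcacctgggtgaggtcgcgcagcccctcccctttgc
Slc17a6: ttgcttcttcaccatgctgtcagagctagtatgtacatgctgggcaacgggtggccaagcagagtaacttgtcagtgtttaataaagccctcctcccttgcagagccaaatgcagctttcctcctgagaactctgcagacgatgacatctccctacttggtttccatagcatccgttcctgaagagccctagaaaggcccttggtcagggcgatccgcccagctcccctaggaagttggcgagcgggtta
Tbr1: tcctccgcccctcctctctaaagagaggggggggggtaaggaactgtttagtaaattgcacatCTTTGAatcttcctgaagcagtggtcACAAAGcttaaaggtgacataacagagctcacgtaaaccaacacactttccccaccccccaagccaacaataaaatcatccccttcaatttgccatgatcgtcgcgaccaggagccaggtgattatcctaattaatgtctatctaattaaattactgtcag

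Prkcd held 1 match, 139 bases before the start on the opposite strand. Tbr1 held 2, at 187 and 161 bases before the start, and Slc17a6 held none. Of the other members, Rprm held 1 match, and Tcf7l2 and Lef1 held none. Either form was present in 27.6% of 32851 windows of the same length, so a match is common and describes only the letters.

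The dorsal libraries were 5362773 to 23412644 counts deep, those of batch B1 shallowest at 5362773 to 9109104, and the whole hippocampus libraries 18814460 to 27293661. Acss2 followed the labels in each library, at 3.87 to 6.04 CPM (counts scaled to a common library total) in dorsal KO libraries and 56.2 to 71.3 CPM in dorsal WT libraries. Each of the 7 markers passed the filter on low counts in both experiments. Each WT fear library was of B1, KO fear 1 and 2 of B1 and 3 and 4 of B3, KO home cage 1 to 3 of B2 and 4 and 5 of B3, and WT home cage 1 and 2 of B1 and 3 to 5 of B2. Nothing shows that the libraries of a group came from separate animals, so p-values measure the spread between these samples. In bulk RNA, fewer cells of a type and less RNA per cell cannot be told apart.

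Prkcd had the highest mean CPM of the thalamus markers over the 17 dorsal libraries, though not in each library or in WT fear, and stepped with batch. It stood at 35.4, 43.8, 18.2 and 19.6 CPM in KO fear libraries 1 to 4 and at 34.4, 9.97 and 15.3 CPM in the 3 WT fear libraries. In the home cage it stood at 105, 51.7, 78.1, 25.7 and 21.8 CPM in KO and at 44.8, 72.7, 92.0, 96.8 and 95.5 CPM in WT. The 6 home cage libraries of B2 lay at 51.7 CPM or above, whichever their genotype, and the 4 KO libraries of B3 at 25.7 CPM or below, whether after fear or in the home cage. In WT, fear and home cage libraries did not overlap, and the share of all genes that separate so is not given.

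Slc17a6 varied most of the 7, with the highest dorsal library 17.8 times the lowest, and its high libraries were not those of Prkcd. After fear it reached 10.1, 3.49, 17.7 and 12.5 CPM in KO and 4.70, 43.4 and 14.3 CPM in WT. In home cage animals it reached 13.0, 6.36, 4.01, 25.0 and 22.6 CPM in KO and 11.1, 14.7, 2.78, 2.43 and 2.55 CPM in WT. WT fear 2, the library with the least Prkcd, had the most Slc17a6, and the 3 WT home cage libraries of B2, among the richest in Prkcd, had the least. Fear and home cage libraries overlapped in both genotypes.

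Tcf7l2 was lower and more even, apart from a few home cage libraries. It stood at 6.56, 4.81, 4.30 and 2.74 CPM in KO fear and at 6.59, 4.82 and 4.67 CPM in WT fear. It stood at 8.49, 4.60, 4.78, 4.82 and 4.11 CPM in KO home cage and at 8.64, 15.2, 2.89, 3.40 and 4.39 CPM in WT home cage. WT home cage 2 held the most, and WT home cage 1 and KO home cage 1 came next. Lef1 was close to its detection limit, at 0.602–1.72 CPM in KO fear, 1.13–1.53 CPM in WT fear, 1.28–2.23 CPM in KO home cage and 1.28–2.76 CPM in WT home cage, on 5 to 41 reads per dorsal library. Its groups overlapped.

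**Figure D1:**
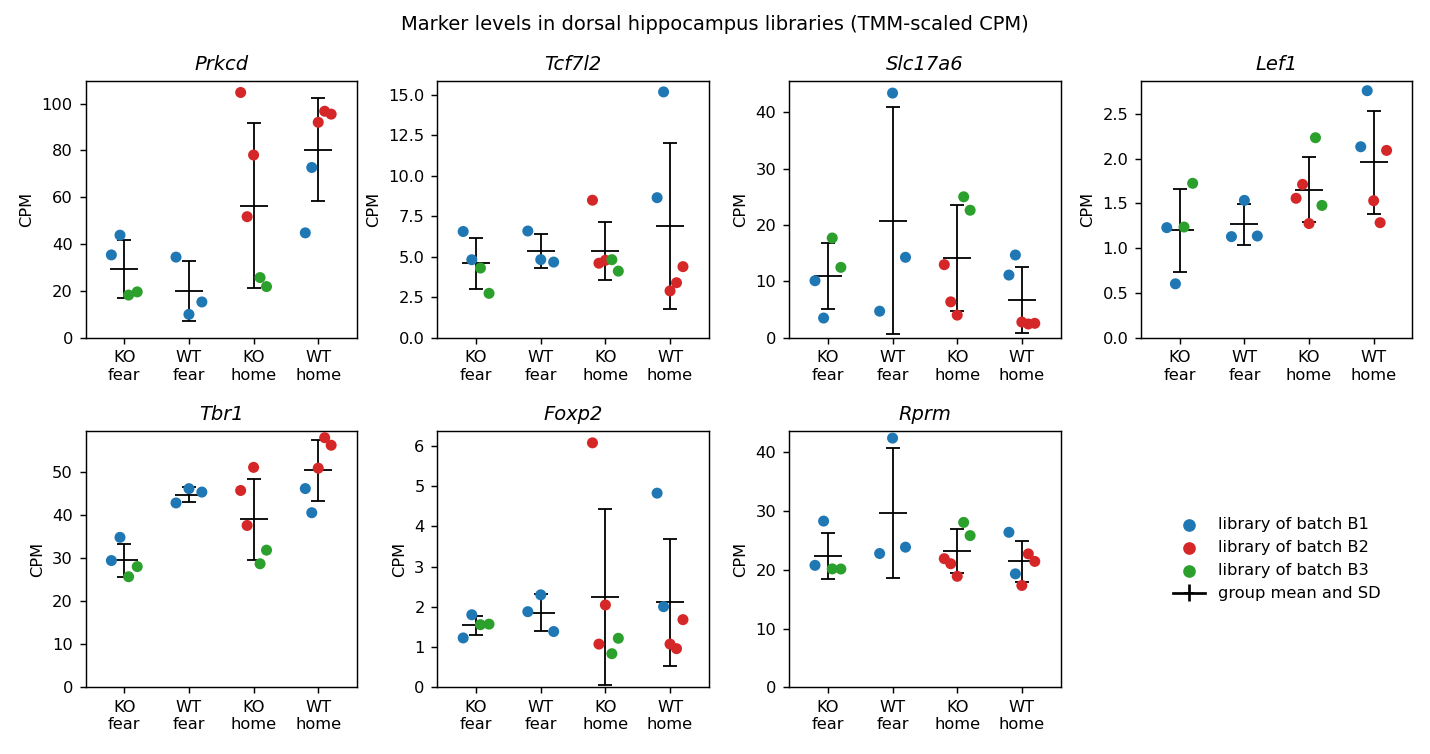
CPM of each marker (y axis, from 0) in the 17 dorsal libraries by group (x axis, n = 4, 3, 5 and 5); points are libraries coloured by batch, and bars are the group mean and SD. Prkcd splits the KO home cage libraries by batch, 51.7 CPM or more in B2 against 25.7 CPM or less in B3, while Foxp2 is high in 1 library of each home cage group, at 6.08 and 4.83 CPM.

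Of the neocortex markers, Tbr1 and Rprm were steadier and Foxp2 was not. Tbr1 ranged over 2.26 times and Rprm over 2.45 times between the lowest and the highest dorsal library, against 7.26 times for Foxp2 and 10.5 times for Prkcd. Tbr1 held 29.5, 34.9, 25.7 and 28.1 CPM in KO fear and 42.9, 46.2 and 45.4 CPM in WT fear, which did not overlap. The share of all genes that separate so is not given. In the home cage it held 45.8, 37.7, 51.2, 28.8 and 31.9 CPM in KO, where the 2 low libraries were those of B3, and 46.3, 40.6, 51.0, 58.1 and 56.3 CPM in WT. Rprm spanned 20.1–28.3 CPM in KO fear, 22.8–42.4 CPM in WT fear, 18.9–28.1 CPM in KO home cage and 17.3–26.4 CPM in WT home cage, and its groups overlapped. The highest Rprm library was WT fear 2, which was also the highest in Slc17a6. Foxp2 lay between 1.23 and 1.81 CPM in KO fear and 1.39 and 2.30 in WT fear. It reached 6.08 CPM in KO home cage 1 and 4.83 in WT home cage 1, where the other 4 libraries of each home cage group held at most 2.05 and 2.01 CPM.

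Per kilobase of annotated exon, a scale on which genes can be set against each other, the order of the dorsal means was Rprm (16.2 ± 3.96 CPM per kb, SD, n = 17), Prkcd (9.13 ± 5.88), Tbr1 (7.51 ± 1.85), Slc17a6 (2.29 ± 1.97), Tcf7l2 (0.642 ± 0.339), Lef1 (0.178 ± 0.0584) and Foxp2 (0.121 ± 0.0851). For neighbours in this order the ranges of mean ± SD overlapped, except between Tbr1 and Slc17a6 and between Tcf7l2 and Lef1.

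The 4 thalamus markers did not rise and fall together across the 17 dorsal libraries taken as a whole, so the label that joins them does not hold as 1 measure over these libraries. Of the 21 pairs of markers, 1 passed adjustment. This was Prkcd with Slc17a6, 2 thalamus genes, and the sign was negative (Pearson r = -0.736, permutation p = 0.00089, adjusted p = 0.0187; Spearman rho = -0.681, adjusted p = 0.0724). Without the 2 libraries farthest from the Prkcd median r was -0.648. Within batches it was -0.590 in B1 (7 libraries) and -0.146 in B2 (6 libraries), so the relation was weak within B2, and B3 held too few libraries. After group and batch means were removed r was -0.54 (adjusted p = 0.190). The other 5 pairs of thalamus markers had r of 0.162 to 0.333, and their r differed between batches. In B1 it was 0.801 for Tcf7l2 with Lef1, 0.748 for Prkcd with Tcf7l2 and 0.573 for Slc17a6 with Lef1. In B2 the same pairs had 0.126, 0.0908 and 0.0197. Tcf7l2 with Slc17a6 had 0.0402 in B1 and 0.884 in B2, and Prkcd with Lef1 had 0.239 and -0.0906. The 3 pairs of neocortex markers had r of -0.0247, 0.148 and 0.263 (Tbr1 with Rprm, Foxp2 with Rprm and Tbr1 with Foxp2). In the 6 whole hippocampus libraries, described with no test, these 3 pairs had r of 0.933, 0.928 and 0.969. Without Het 2 these were 0.745, 0.751 and 0.804. The thalamus pairs had r of -0.276 to 0.477 over the 6 whole libraries.

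**Figure D2:**
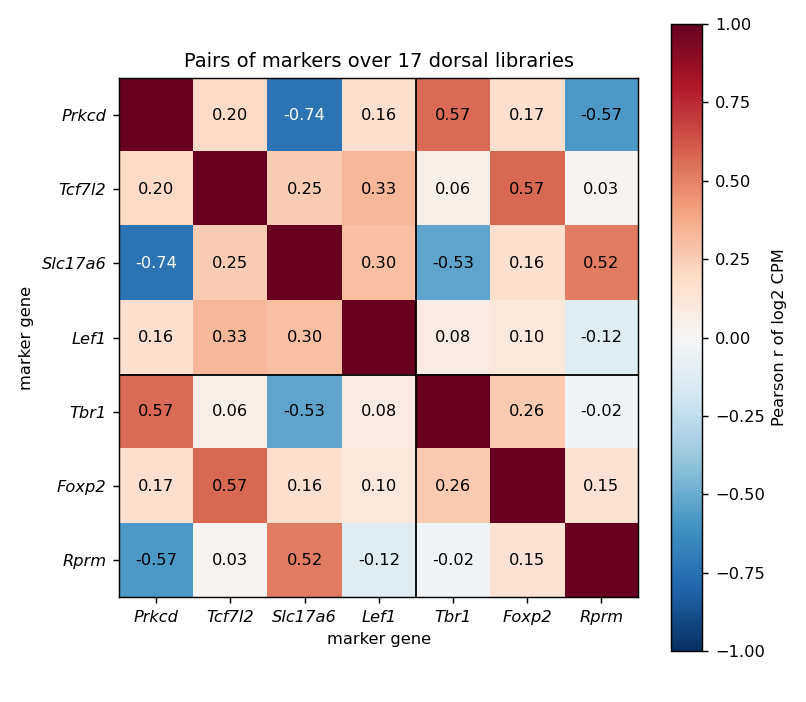
Pearson r of log2 CPM for each pair of markers over the 17 dorsal libraries, with thalamus markers above and left of the black lines and neocortex markers below and right; the diagonal is a gene with itself. The strongest cell off the diagonal is the negative one of Prkcd with Slc17a6, at -0.74, inside the thalamus block.

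Each marker was then set against the mean log2 CPM of 13 further lists of region and cell type markers, 91 pairs in all, a comparison added after the levels above had been seen. Of the 91, 11 passed adjustment over the family. The permutations shuffled the 17 libraries without regard to group or batch, so these p-values take no account of either. No value after removal of group and batch means is given for these pairs. The list with the highest r differed for each of Prkcd, Tcf7l2, Slc17a6 and Foxp2, and no list passed for Lef1, Tbr1 or Rprm.

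Prkcd followed the 10 genes of hippocampal fields CA2 and CA3, with r = 0.955 (permutation p = 1e-05, the smallest these permutations can give, adjusted p = 0.000455; rho = 0.949, adjusted p = 0.00091). The relation held within 2 of the 3 batches, at 0.969 in B1 and 0.952 in B2, and at 0.946 without the 2 libraries farthest from the Prkcd median. B3 held too few libraries for a value, and there the library with the most Prkcd, KO home cage 4, had the lowest list mean. With the other thalamus list Prkcd had r = 0.182 (adjusted p = 0.701). It ran against the CA1 list (r = -0.786, adjusted p = 0.00965; -0.858 in B1 and -0.928 in B2; -0.739 without the 2 libraries). It also followed the ependymal list (r = 0.741, adjusted p = 0.00965; 0.825 in B1 and 0.868 in B2; 0.571 without the 2 libraries) and the choroid plexus list (r = 0.707, adjusted p = 0.0115; 0.881 in B1 and 0.866 in B2; 0.508 without the 2 libraries). It ran against the subiculum list (r = -0.737, adjusted p = 0.0115; -0.790 in B1 and -0.729 in B2; -0.714 without the 2 libraries), where rho did not pass (adjusted p = 0.0892).

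Tcf7l2 followed the other thalamus list, of which 13 of 14 genes were tested and Gbx2, a defining thalamic transcription factor, was not, with 0 to 30 reads per dorsal library. The value was r = 0.877 (permutation p = 1e-05, adjusted p = 0.000455; rho = 0.686, adjusted p = 0.0312). It was 0.976 in B1, 0.616 in B2 and 0.694 without the 2 libraries farthest from the Tcf7l2 median. The summed level of that list was 147–197 CPM in KO fear, 192–226 CPM in WT fear, 150–166 CPM in KO home cage and 148–252 CPM in WT home cage, where WT home cage 2, the highest in Tcf7l2, held 252 CPM.

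Slc17a6 followed the other deep-layer neocortex list (r = 0.735, permutation p = 0.00066, adjusted p = 0.01; rho = 0.770, adjusted p = 0.00955; 0.733 in B1 and 0.666 in B2; 0.682 without 2 libraries). It also followed the subiculum list (r = 0.718, permutation p = 0.00142, adjusted p = 0.0129; rho = 0.676, adjusted p = 0.0350; 0.677 in B1 and 0.583 in B2; 0.707 without 2 libraries), which rests on 2 tested genes. It ran against the CA2 and CA3 list (r = -0.738, adjusted p = 0.01), though r was -0.276 in B2. With the other thalamus list it had r = 0.207 (adjusted p = 0.674).

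Foxp2 followed the striatum list of 6 genes, among them the dopamine receptors Drd1 and Drd2 (r = 0.904, permutation p = 2e-05, adjusted p = 0.000607; rho = 0.865, adjusted p = 0.00273; 0.952 in B1 and 0.990 in B2; 0.805 without 2 libraries). Its 2 high libraries were the highest of that list, with a summed level of 141 CPM in KO home cage 1 and 179 CPM in WT home cage 1, against 73.4 to 102 CPM in the other 15. Foxp2 also followed the medial habenula list (r = 0.690, permutation p = 0.00193, adjusted p = 0.016; rho = 0.779, adjusted p = 0.00955; 0.739 in B1 and 0.724 in B2; 0.721 without 2 libraries). With the other deep-layer neocortex list Foxp2 had r = 0.00057 (adjusted p = 0.998).

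**Figure D3:**
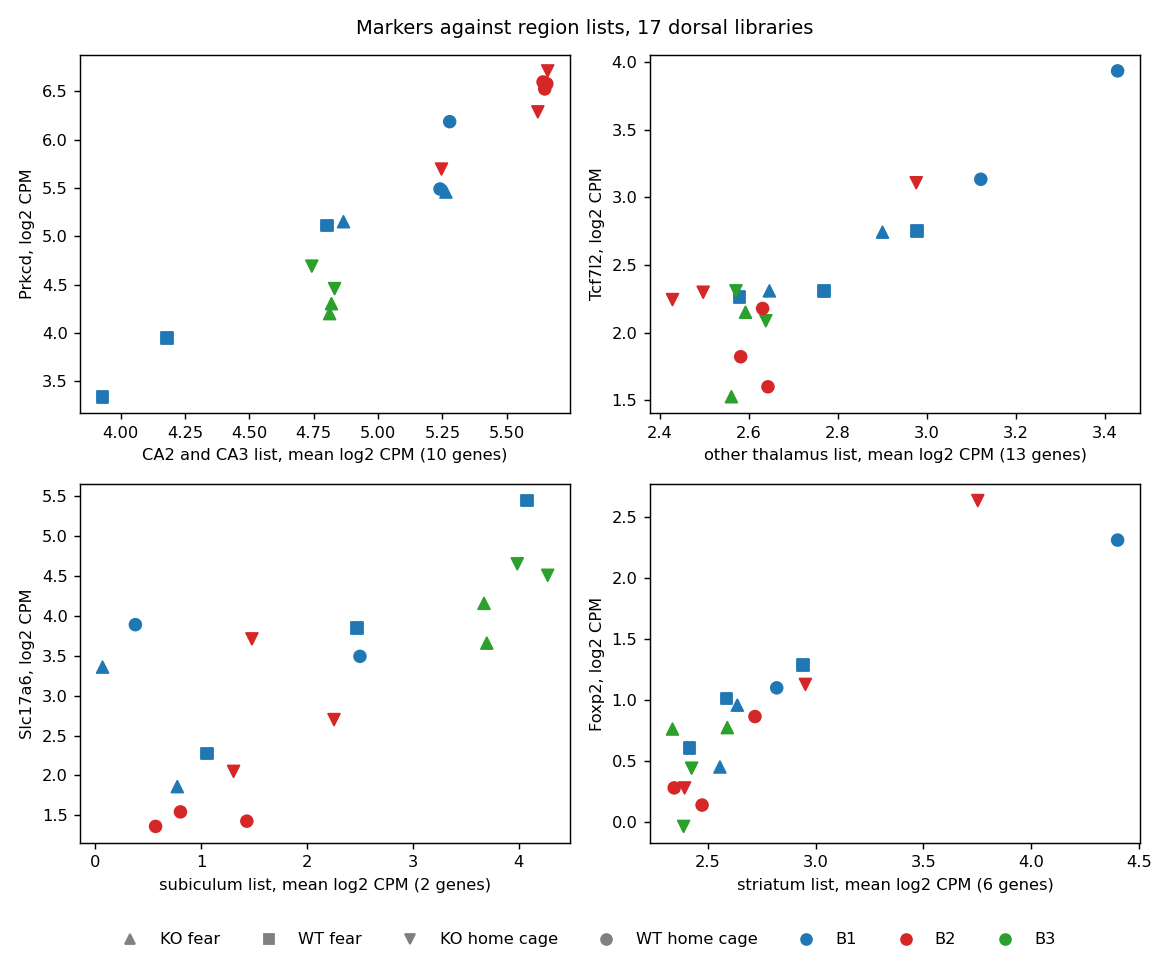
log2 CPM of Prkcd, Tcf7l2, Slc17a6 and Foxp2 (y axes) against the mean log2 CPM of the CA2 and CA3, other thalamus, subiculum and striatum lists (x axes) in the 17 dorsal libraries; colour is the batch and shape the group. Prkcd lies along a line with the CA2 and CA3 list over the 17 libraries (r = 0.955) and within B1 and B2, but not over the 4 libraries of B3, and Foxp2 with the striatum list (r = 0.904).

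Among 11386 genes with a mean of at least 5 CPM, those closest to the mean of the 4 thalamus markers were Rgs16 (r = 0.714), Erlec1 (0.708), Fbl (0.689), Gm1821 (0.687) and Cul2 (0.685). Rgs16 is a gene of the other thalamus list, and its r was 0.732 in B1 and 0.953 in B2. Those closest to the mean of the 3 neocortex markers were Lmnb1 (0.787), Taf15 (0.739), Camk2d (0.718), Ash2l (0.694) and Lyrm9 (0.693). A search with 1 marker at a time was added after the values were seen. Except for Foxp2, the gene closest to a marker had a higher r than the gene closest to its group's mean. Cpne4, which encodes a copine, a calcium-dependent membrane-binding protein, had r = 0.976 with Prkcd, and Igf1r, the receptor of insulin-like growth factor 1, had r = 0.941 with Tbr1. Etv1, a transcription factor of layer 5 neurons, had r = 0.888 with Slc17a6, and Tac1, the substance P precursor of striatal neurons, had r = 0.742 with Foxp2. Rsrc1 had r = 0.869 with Tcf7l2, Marcksl1 0.890 with Rprm, and Manea 0.796 with Lef1, though -0.251 in B2. These are descriptions over the same 17 libraries.

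After fear conditioning in WT mice, Prkcd was the 1 marker of 7 that passed, and it was lower. Its log2 fold change was -1.63 ± 0.34 (standard error; edgeR adjusted p = 0.0330), or 3.09-fold, in a comparison where 1.63% of the 14808 genes tested passed in either direction (0.871% higher and 0.756% lower). Tcf7l2 (-0.93 ± 0.36, adjusted p = 0.152), Lef1 (-0.74 ± 0.37, 0.266) and Slc17a6 (1.08 ± 0.59, 0.294) did not pass, nor did Tbr1 (0.04 ± 0.12, 0.870), Rprm (0.28 ± 0.22, 0.468) or Foxp2 (-0.39 ± 0.70, 0.770). The Slc17a6 value rests on WT fear 2, without which it was -0.038, and that of Tcf7l2 on WT home cage 2, without which it was -0.42.

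The CA2 and CA3 list moved with Prkcd here: its summed level was 341 to 559 CPM in WT fear and 691 to 1018 CPM in WT home cage. In that list 2 of 10 genes fell, Amigo2 (-1.65 ± 0.25, edgeR adjusted p = 0.00721) and Cacng5 (-1.18 ± 0.26, 0.0382), and the list's median was -0.82, against -0.02 over all genes. Of the other thalamus list 0 of 13 passed (edgeR), with a median of -0.30, and its summed level overlapped between the groups, 192 to 226 CPM in WT fear and 148 to 252 CPM in WT home cage. Lists of other cell types moved too. Of 9 oligodendrocyte genes 8 fell, among them Mog (-1.42 ± 0.30, adjusted p = 0.0339), with summed levels of 3777 to 5126 CPM in WT fear and 6585 to 13187 CPM in WT home cage. Of 6 ependymal genes 3 fell, among them Foxj1 (-2.24 ± 0.54, adjusted p = 0.0467), with summed levels of 6.31 to 9.22 CPM in WT fear and 33.3 to 92.5 CPM in WT home cage and a median of -3.55. Of 10 choroid plexus genes 1 fell, Sostdc1 (-1.88 ± 0.37, adjusted p = 0.0306; list median -1.46), and 4 of 7 CA1 genes rose (median 1.16). The part of any of these lists in the Prkcd difference was not tested. Within B1 (3 fear and 2 home cage libraries) the Prkcd difference was as large but did not pass, at -1.60 (adjusted p = 0.189). It also missed the threshold without WT home cage 2 (-1.37, adjusted p = 0.264), WT fear 2 (-1.28, 0.149), WT fear 3 (-1.48, 0.136), KO home cage 4 (0.0512), KO fear 2 (0.0532) or KO fear 4 (0.0502). Without WT fear 1 it was -2.20 (adjusted p = 0.000918).

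After fear in KO mice 0 of 7 markers passed (edgeR), where 0% of all genes did, and 2 had an unadjusted p under 0.05. Over all genes 714 had an unadjusted p under 0.05. DESeq2 called 6 genes and 0 of the 7. Each of the 7 log2 fold changes was below 0, between -0.16 ± 0.11 for Tbr1 and -1.20 ± 0.53 for Slc17a6 (adjusted p = 0.968 for each of the 7). Their medians were -0.76 for the thalamus and -0.24 for the neocortex markers, beside -0.00173 over all genes.

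Between KO and WT mice after fear, 2 of 7 markers passed, where 22.3% of all genes did (10.2% higher and 12.1% lower), a share the 2 of 7 do not stand apart from. Prkcd was higher in KO (1.05 ± 0.34, edgeR adjusted p = 0.0391), and Tbr1 was lower (-0.49 ± 0.13, adjusted p = 0.0192). The other 5 did not pass: Slc17a6 (-1.22 ± 0.64, adjusted p = 0.169), Rprm (-0.39 ± 0.22, 0.196), Tcf7l2 (0.44 ± 0.38, 0.417), Foxp2 (0.48 ± 0.76, 0.668) and Lef1 (-0.18 ± 0.41, 0.773). The WT fear libraries serve in this comparison and in that of fear with home cage in WT, so the opposite signs of Prkcd in the 2 are not separate observations.

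In the same comparison 4 of 10 CA2 and CA3 genes were higher in KO, among them Amigo2 (1.23 ± 0.25, edgeR adjusted p = 0.0155) and Iyd (1.58 ± 0.44, 0.0232), with summed levels of 549 to 830 CPM in KO fear and 341 to 559 CPM in WT fear. Of 7 upper-layer neocortex genes, 3 were lower in KO with Tbr1, namely Rasgrf2 (-0.64 ± 0.17, adjusted p = 0.0200), Scnn1a (-0.87 ± 0.28, 0.0379) and Mdga1 (-0.70 ± 0.24, 0.0469), and the summed levels did not overlap, 166 to 199 CPM in KO fear and 250 to 285 CPM in WT fear. Of 13 other thalamus genes 1 was lower, Ntng1 (-0.56 ± 0.14, 0.0196), which encodes a netrin of thalamocortical axons. Among 11 other deep-layer neocortex genes, Fezf2 and Etv1 were lower (-1.17 ± 0.30, adjusted p = 0.0185, and -0.89 ± 0.28, 0.0346) and Hs3st4 higher (1.15 ± 0.26, 0.0155). Lists of other cell types moved as well. All 6 ependymal genes were higher in KO (median 3.41), with summed levels of 23.1 to 68.5 CPM in KO fear and 6.31 to 9.22 CPM in WT fear. Higher too were 8 of 9 oligodendrocyte genes (median 0.95; 6471 to 10244 CPM in KO fear and 3777 to 5126 CPM in WT fear) and 7 of 10 choroid plexus genes (median 2.05). Of 7 CA1 genes 5 were lower and 1 higher (median -1.07). The part of these lists in the marker differences was not tested.

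Neither call of this comparison held in each fit. Prkcd was 1.05 within B1 (adjusted p = 0.0564), 0.98 by DESeq2 (0.0594), 1.06 with the 2 groups alone (0.0574) and 0.58 with no batch term (0.468). It missed the threshold without WT fear 2 (0.70, adjusted p = 0.165), WT fear 3 (0.90, 0.143), KO fear 1 (0.0630), KO fear 2 (0.166), KO fear 3 (0.0527), WT home cage 2 (0.0557), WT home cage 4 (0.0503) or KO home cage 5 (0.0545), and was 1.63 (0.00414) without WT fear 1. Tbr1 was -0.47 within B1 (0.0665) and missed it without WT fear 2 (0.0754), WT fear 3 (0.0709), KO fear 1 (0.0605) or KO fear 2 (0.110). Slc17a6 was -0.09 without WT fear 2, and -1.66 (adjusted p = 0.0359) without WT fear 1.

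In the home cage, KO against WT, 0 of 7 passed (edgeR), where 0.00675% of all genes did (0% higher), and 1 had an unadjusted p under 0.05, as 1674 of all genes did. That was Tbr1 (-0.29 ± 0.097, adjusted p = 0.440), and DESeq2 called 0 of the 7. Slc17a6 was 1.06 ± 0.52 (0.440) and Prkcd -0.27 ± 0.25 (0.635).

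The interaction, taken as what fear did in KO less what it did in WT, passed for 0 of 7 (edgeR), where 0.479% of all genes passed (0.196% above and 0.284% below 0). An unadjusted p under 0.05 was found for 2 of the 7 and for 3238 of the 14808 genes, a share the 2 of 7 do not stand apart from. They were Prkcd (1.31 ± 0.39, adjusted p = 0.0889) and Slc17a6 (-2.28 ± 0.69, adjusted p = 0.0936). DESeq2 also called 0 of the 7. Without WT fear 1 both passed, Prkcd at 1.89 (0.00491) and Slc17a6 at -2.73 (0.0163), and Prkcd passed without WT home cage 1 (1.43, 0.0475) or KO home cage 1 (1.46, 0.0318). Without WT fear 2 Slc17a6 was -1.16.

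In whole hippocampus the highest library was 1.58 times the lowest for Slc17a6, 1.49 for Tcf7l2, 1.43 for Prkcd and 1.25 for Lef1. The Slc17a6 values of the genotypes did not overlap, at 2 libraries each, and the share of all genes that separate so is not given. KO libraries stood at 32.2 and 30.5 CPM, Het libraries at 38.4 and 37.6 CPM, and WT libraries at 25.4 and 24.3 CPM. The log2 fold changes were 0.34 ± 0.067 for KO against WT (edgeR adjusted p = 0.774), 0.61 ± 0.067 for Het against WT (0.122) and -0.27 ± 0.066 for KO against Het (0.254), and none passed. With DESeq2 the Het difference passed (0.61, adjusted p = 0.000124). In edgeR without Het 1, which leaves 1 Het library, it was 0.60. The subiculum list did not move with it, at a summed 83.7 to 88.9 CPM in KO, 75.0 to 80.0 in Het and 83.8 to 86.6 in WT. The other thalamus list summed to 214–241 CPM in KO, 225–272 CPM in Het and 211–216 CPM in WT, with Gbx2 at 0 to 4 reads per library.

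Prkcd held 30.7 and 23.4 CPM in KO, 23.1 and 21.5 in Het and 24.8 and 24.7 in WT. Tcf7l2 held 7.88 and 6.93 CPM in KO, 6.55 and 9.58 in Het and 7.27 and 6.41 in WT. Lef1 held 7.05 and 6.38 CPM in KO, 6.28 and 6.50 in Het and 5.62 and 6.28 in WT. The genotypes overlapped for Tcf7l2. For Lef1 KO and Het overlapped and both WT libraries lay below them, although the nearest WT and Het libraries both round to 6.28 CPM. Both Prkcd values of Het lay below the rest. The share of all genes that order the libraries in such ways is not given.

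The neocortex markers stood highest in Het, above all in Het 2. Tbr1 held 54.5 and 53.9 CPM in KO, 70.8 and 111 in Het and 48.3 and 51.0 in WT. Foxp2 held 2.97 and 2.05 CPM in KO, 3.30 and 9.51 in Het and 2.15 and 2.26 in WT. Rprm held 32.3 and 29.9 CPM in KO, 38.2 and 44.9 in Het and 33.4 and 32.4 in WT. For each of these genes both Het libraries lay above the other 4, and the share of all genes that do so is not given. Against WT the Het log2 fold changes were 0.88 ± 0.19 for Tbr1 (edgeR adjusted p = 0.234), 1.56 ± 0.48 for Foxp2 (0.307) and 0.34 ± 0.093 for Rprm (0.282).

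**Figure D4:**
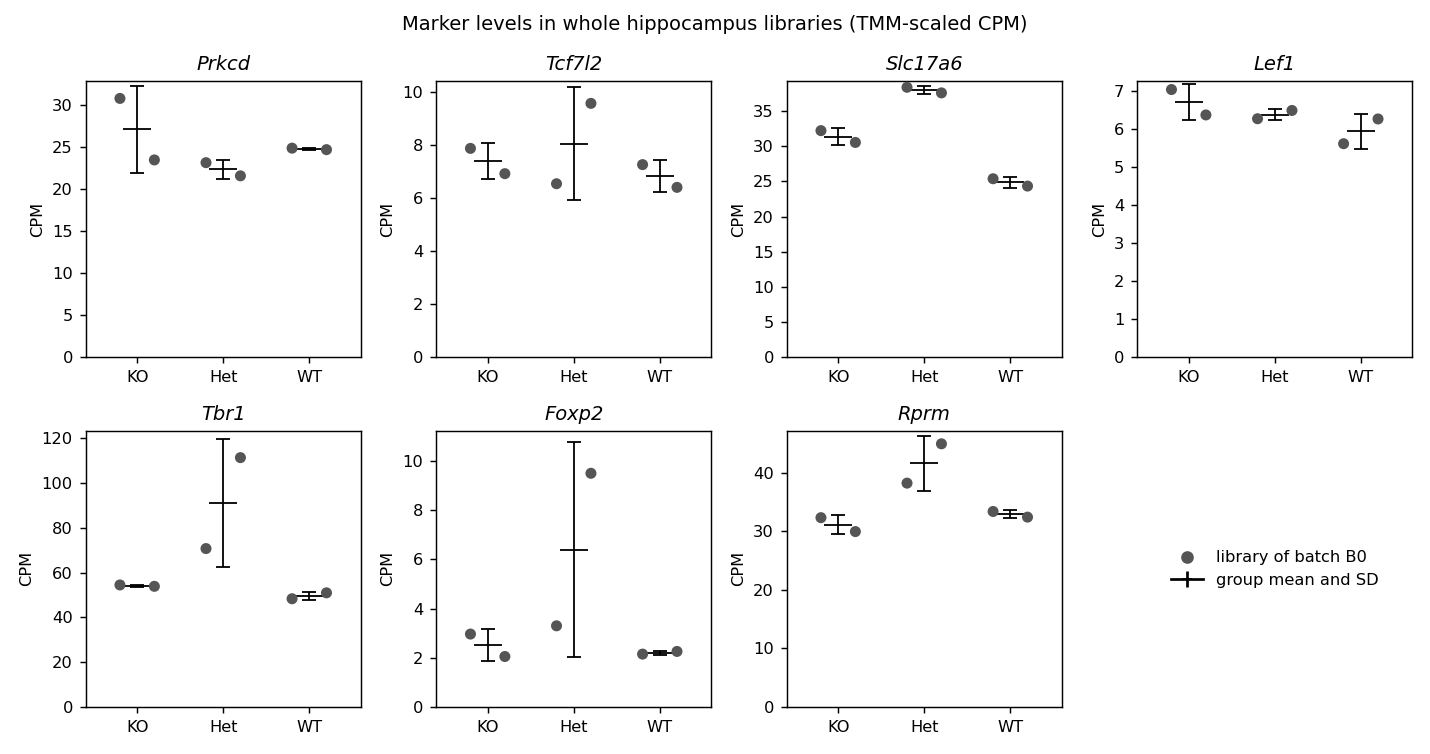
CPM of each marker (y axis, from 0) in the 6 whole hippocampus libraries by genotype (x axis, n = 2 each); points are libraries, all of batch B0, and bars are the mean and SD. The Slc17a6 values of the genotypes do not overlap, at 30.5 to 32.2 CPM in KO, 37.6 to 38.4 in Het and 24.3 to 25.4 in WT. The share of all genes that separate so is not given. Het 2 is the highest library for Tbr1, Foxp2, Rprm and Tcf7l2.

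Het 2 also stood apart in other lists. Cux2, an upper-layer neocortex transcription factor, held 68.0 CPM in Het 2 and 25.5 to 30.7 CPM in the other libraries, and Otof held 21.9 CPM in Het 2 and 8.62 to 9.85 CPM in the others. Both were named after their values were seen. The whole upper-layer list summed to 236 to 318 CPM in Het, 230 to 249 in KO and 225 to 248 in WT. In Het against WT 5 of its 7 genes lay above 0 and 2 below. The other deep-layer neocortex list summed to 488 to 645 CPM in Het, 549 to 574 in KO and 615 to 616 in WT. Of its 11 genes, 8 lay above 0 and 3 below. The medial habenula list summed to 126 CPM in Het 2 and 66.8 to 80.2 CPM elsewhere, and Gpr151, a habenular receptor, held 2.79 CPM in Het 2 and 0.632 to 0.912 CPM elsewhere. The CA1 list summed to 562 CPM in Het 2 and 782 to 867 CPM elsewhere, and the dentate gyrus list to 426 CPM and 598 to 677 CPM. Without Het 2 the Het against WT log2 fold changes were 0.51 for Tbr1, 0.58 for Foxp2 and 0.21 for Rprm. Without Het 1 the log2 fold changes were 1.16 for Tbr1, 2.11 for Foxp2, 0.45 for Rprm and 0.60 for Slc17a6. These rest on Het 2 alone, which is then assumed to vary like the other groups, so no call is read from them.

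By edgeR 0 of 7 markers passed in any comparison of whole hippocampus. Of 15453 genes tested, 0.0388% passed for KO against WT (0.0259% higher and 0.0129% lower), 0% for Het against WT and 0.0841% for KO against Het (0.0453% higher and 0.0388% lower). An unadjusted p under 0.05 was found for 1 marker in KO against WT (among 941 genes), 4 in Het against WT (among 2145) and 4 in KO against Het (among 2038). DESeq2 called 0 markers for KO against WT, 2 for Het against WT (Slc17a6 and Tbr1) and 1 for KO against Het (Tbr1). These 3 comparisons share libraries by pairs. The neocortex markers had a median log2 fold change of 0.13 for KO against WT, 0.88 for Het against WT and -0.75 for KO against Het, beside medians of all genes within 0.00481 of 0.

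**Figure D5:**
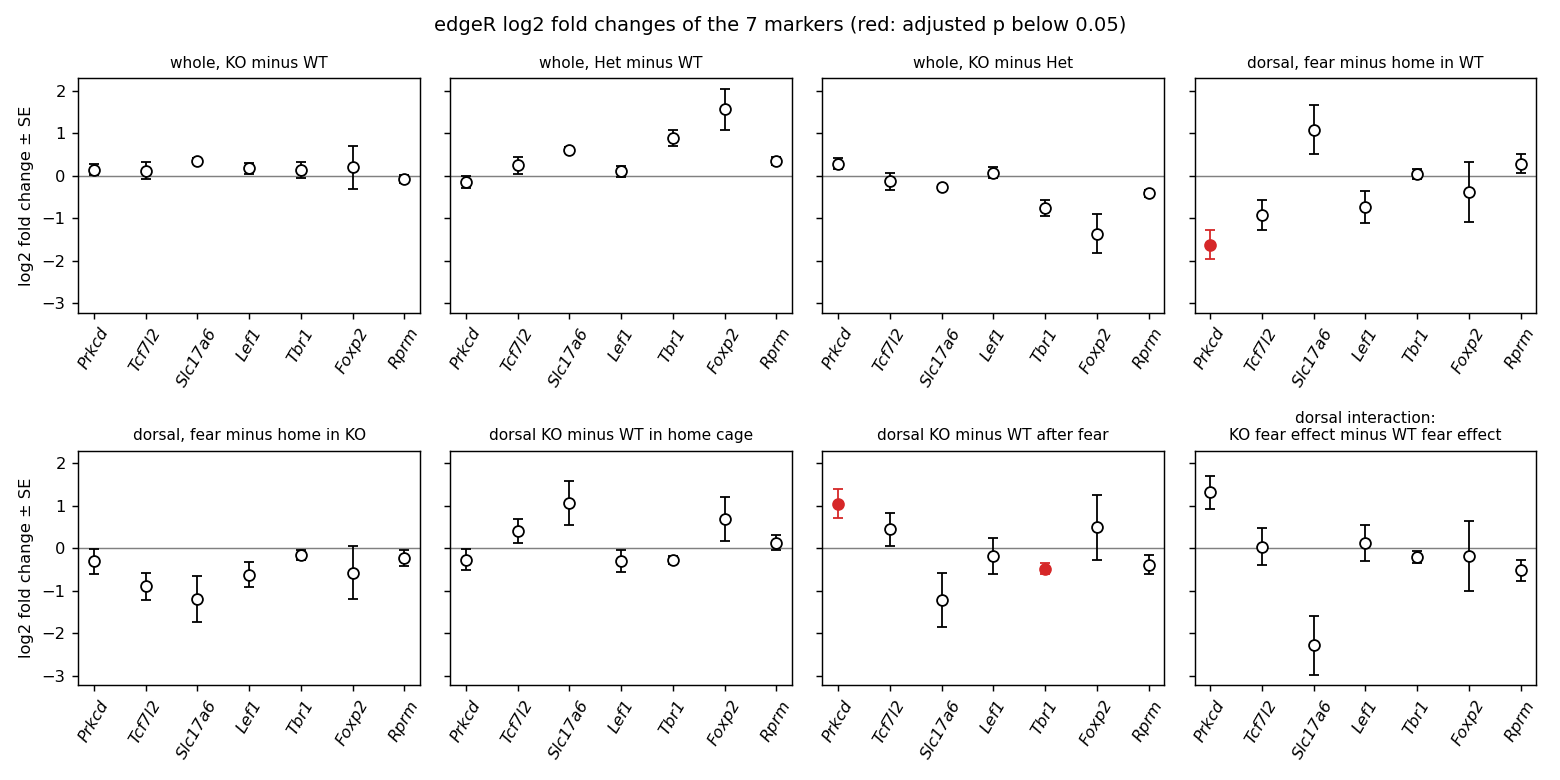
log2 fold change ± standard error of the 7 markers in the 8 comparisons, from edgeR; filled red points have an adjusted p below 0.05. There are 3 red points, Prkcd at -1.63 for fear against home cage in WT, and Prkcd at 1.05 and Tbr1 at -0.49 for KO against WT after fear.

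The 2 experiments were scaled apart and differed in cut and batch, so their levels are set side by side with no test. Prkcd averaged 50.6 ± 32.6 CPM in the 17 dorsal libraries and 24.7 ± 3.18 CPM in the 6 whole ones (SD). Slc17a6 averaged 12.4 ± 10.6 CPM in dorsal and 31.4 ± 5.91 CPM in whole libraries. Lef1 did not overlap, at 0.602 to 2.76 CPM in dorsal and 5.62 to 7.05 CPM in whole libraries. The endothelial list did not overlap either, at 51.7 to 167 CPM and 233 to 290 CPM, nor did the subiculum list, at 7.94 to 45.2 CPM and 75.0 to 88.9 CPM. Over the dorsal libraries no list passed with Lef1. The part of these lists in the Lef1 difference was not tested. Between the lowest and highest library, Slc17a6 ranged over 17.8 times in dorsal and 1.58 times in whole libraries, and Prkcd over 10.5 and 1.43 times.

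The authors' deposited table of normalized dorsal signal shows less of the batch step in Prkcd. The submitters' notes name limma and DESeq2 with no role given, so whether that table was adjusted for batch is not known here. There the KO home cage mean was 671 in B3 and 681 in B2, and the KO fear mean 563 in B3 and 577 in B1. The WT fear libraries averaged 332, and the WT home cage libraries 815 in B1 and 812 in B2, in the same authors' deposited table.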

How the data were processed

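Polyadenylated RNA of 23 mouse hippocampus libraries was measured. Tests used the count tables deposited by the authors, raw read counts by gene symbol, 1 per experiment. The authors' deposited normalized signal of the dorsal experiment was used only as a description. The tools STAR, DESeq2, limma, HTSeq 0.9.1 and SAMtools 1.1 and the build mm10 come from the submitters' processing notes, with no role given. The library kit, NEBNext Ultra II RNA per the labels, keeps no strand.

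Each experiment was fitted apart in R 4.3.3 with the quasi-likelihood test of edgeR 4.0.16, TMM scaling and filterByExpr (count minimum 10, total minimum 15). The terms were genotype (6 whole libraries, 15453 genes, 3 residual degrees of freedom) or group and batch (17 dorsal libraries, 14808 genes, 11 degrees of freedom). P-values are two-sided and adjusted by Benjamini-Hochberg over all genes, threshold 0.05. Standard errors are the log2 fold change over the square root of F. The fits were tested on simulated data. Levels are TMM-scaled CPM; log2 CPM has a prior count of 2. Correlations used 100000 permutations of the 17 dorsal libraries, not restricted by group or batch (SciPy 1.17.1). DESeq2 1.42.0, other scalings, filters, sample sets, the batch term and leaving out each library were the alternatives. No library was a copy of another: chi-square per gene between libraries of a group was 5.98 to 61.5. Replicate numbers showed no pairing of the dorsal samples, and the check could not decide this for whole hippocampus. Spreadsheet dates replaced 26 gene symbols of the dorsal experiment.

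The members and lists were chosen with earlier results of these data known. Named genes are the 7 markers, at most the 3 genes of a list with the smallest p in a comparison, and the 5 genes with the highest r with each marker mean. Cpne4, Igf1r, Etv1 (beside Slc17a6), Tac1, Rsrc1, Marcksl1, Manea, Gpr151 in single libraries, Cux2 and Otof as levels, and Gbx2 were named after their values were seen.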

Additional observations from a re-analysis of the deposited data

Results flagged for a closer look

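The highest or lowest library of each dorsal group of 4 or 5 was compared with the rest of its group for each marker, 21 tests in all. By Dixon's criterion 4 stood out, where chance flags about 1 in 20 groups. Foxp2 stood at 6.08 CPM in KO home cage 1 and at 4.83 CPM in WT home cage 1, the libraries with the most striatum RNA (list sums of 141 and 179 CPM). Tcf7l2 stood at 8.49 CPM in KO home cage 1, where the other thalamus list summed to 166 CPM, against 150 to 157 CPM in the other 4 KO home cage libraries. Rprm stood at 28.3 CPM in KO fear 2. Whether these lists account for these values was not tested.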

How the results depend on the processing

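Counts of genes called depended on the fit. DESeq2 called 19 (KO against WT), 139 (Het against WT) and 132 (KO against Het) genes in whole hippocampus, with 2 and 1 markers in the last pair. In the dorsal experiment DESeq2 called 925 for fear in WT, 6 for fear in KO, 2 for KO against WT in the home cage, 1 marker for KO against WT after fear and 900 for the interaction. Without a filter the counts were 3 (Het against WT), 23 (KO against Het), 528 (fear in WT), 2 (home cage) and 400 with 2 markers (interaction). The 2 groups alone gave 7 (KO against Het), 19 with 0 markers (fear in WT) and 1 marker (KO against WT after fear). Without the batch term they were 712 (fear in WT), 1 (fear in KO), 2 (home cage), 1544 with 1 marker (KO against WT after fear) and 0 (interaction). Within B1 fear in WT gave 5 genes and 0 markers, and KO against WT after fear 0 markers; within B3 fear in KO gave 2 genes. DESeq2 size factors gave 130 genes for the interaction. The count of marker pairs was 0 on residuals, against 1. The cause was not tested for any of these.

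Replicate numbers showed no pairing of the dorsal samples (same-number correlations of -0.506 to 0.288, 3 of 22 over 0.1). In whole libraries the correlations were -0.678 to 0.388, 2 of 6 over 0.1. With 2 libraries a group both replicate numbers must give the same value, so the check cannot decide on pairing there. With the replicate number as a block 7 genes were called for KO against Het, 15 for fear in WT, 1 for KO against WT after fear and 0 for the interaction, and 0 markers in each; the block changed no other count by over 1.5 times. Under the block Prkcd was -1.68 for fear in WT (edgeR adjusted p = 0.106).

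Leaving out each library in turn gave 5 to 7 genes for KO against WT whole, 0 to 1424 for Het against WT with 0 to 4 markers, and 6 to 1211 for KO against Het with 0 to 3 markers. It gave 6 to 829 for fear in WT with 0 to 1 marker, 0 for fear in KO, 1 to 585 in the home cage, 1 to 4610 for KO against WT after fear with 0 to 3 markers, and 0 to 1007 for the interaction with 0 to 2 markers. The lowest count after fear, 1, came without WT fear 3, and the 1424 and 1211 without Het 1.

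Log2 fold changes that turned sign passed in no fit. Tbr1 for fear in WT was -0.17 with no batch term. Foxp2 for fear in KO was 0.59 with 2 groups alone and 0.58 within B3. In the home cage Tcf7l2 was -0.034 (block) and -0.27 (no batch term) and Foxp2 -0.14 (block). After fear Foxp2 was -0.27 (2 groups alone), -0.15 (block), -0.27 (no batch term) and -0.27 (within B1), and Tcf7l2 -0.25 (no batch term). With 1 library left out Foxp2 ranged from -0.19 to 0.95 (home cage), -0.61 to 0.72 (fear in WT), -0.79 to 0.41 (interaction) and -0.10 to 0.43 (KO against WT whole). Lef1 ranged from -0.30 to 0.19 (KO against WT after fear), -0.073 to 0.38 (interaction) and -0.00174 to 0.14 (KO against Het), and Prkcd from -0.077 to 0.31 (KO against WT whole). For fear in WT, Rprm ranged from -0.078 to 0.46, Slc17a6 from -0.038 to 1.53 and Tbr1 from -0.027 to 0.10. Tcf7l2 ranged from -0.25 to 0.27 (interaction), -0.065 to 0.485 (Het against WT) and -0.37 to 0.18 (KO against Het).

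Lef1 and Foxp2 rest on few reads in dorsal libraries, and 2 libraries a genotype limit whole hippocampus. Each WT fear library is of the shallow B1, so fear against home cage in WT within 1 batch rests on 2 home cage libraries.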
